A study of Gallus gallus with 4 samples.

Results

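The regulators described here are 7 genes of the primitive streak and tail bud of the chicken embryo, namely the T-box gene TBXT, the caudal genes CDX1, CDX2 and CDX4, the homeobox gene EVX1, the zinc finger gene SP8 and the signalling ligand gene NODAL. They were chosen by name, with earlier results of these data known, as all probe sets that the platform annotation assigns to these symbols. This gave 9 probe sets, 3 for CDX2 and 1 for each of the other genes, out of 37695 chicken probe sets on the array. RNA came from the dissected streak region that holds the precursors of the presomitic mesoderm, in embryos of 9 somites. The tested embryos carried a vector for HoxA13 together with an H2B-Venus reporter, driven by the CAGGS promoter, and the control embryos carried the H2B-Venus reporter alone. All embryos were incubated for 24 h, electroporated at stage 5 HH and cultured for a further 14 h, so electroporation and culture were common to both groups. Each array held a pool of 7 embryos, and there were 2 arrays for HoxA13 and 2 for the control. The labels call them biological replicates, so the spread behind the p-values is one between pools. With 2 arrays per group, the test draws much of that spread from other probe sets of similar intensity.

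Cells of the streak and later of the tail bud feed the elongating body axis with mesoderm and spinal cord. TBXT, also known as Brachyury, is needed in vertebrates for mesoderm to form and for the axis to extend. The caudal proteins act with it downstream of Wnt and FGF signals and promote posterior identity, in part through the Hox genes. EVX1 is a homeobox gene of the streak and tail bud that lies next to the HOXA cluster. SP8 is a zinc finger factor linked to Wnt and FGF signalling in the tail bud and the limb. NODAL is a TGF-beta family ligand that induces mesoderm and endoderm in the early streak, and its expression there is transient. The comparison asks which of these transcripts differ when a Hox gene that normally comes on late is supplied to the progenitors early.

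Median intensity over chicken probe sets lay between 9.48 and 10.0 on the 4 arrays. Each array's background was set at the 99th percentile over 687 probe sets for viruses and lay between 12.8 and 16.5. All 8 genes of a fixed list of streak and presomitic precursor markers, TBXT, CDX2, CDX4, WNT3A, FGF8, MSGN1, CYP26A1 and WNT8A, were above background on all 4 arrays. The HOXA13 probe set had 16.3 and 8.09 in HoxA13 arrays against 11.6 and 24.7 in control arrays, so it did not separate the groups. It was above background on only 1 array of each group, so these values do not measure the level of HoxA13. Whether it reads the part of the gene in the vector is not known here. The brightest reporter probe set had 7038 and 7458 in HoxA13 arrays, against 1293 and 1454 in control arrays, although both vectors carry a reporter. The next brightest had 109 and 76.3 in HoxA13 arrays and was below background in control arrays, at 3.67 and 2.59. Spike-ins added at hybridisation were brighter on both arrays numbered 2 than on both numbered 1, for 27 of 27 probe sets. Differences are therefore also given between the arrays of equal number.

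Of the 7 genes, EVX1 and SP8 differed most among those above background, with 3.79-fold and 1.92-fold higher intensity in HoxA13 arrays. CDX4 and the brightest CDX2 probe set were higher by smaller amounts, TBXT was nearly level, CDX1 was lower, and NODAL stayed below background. In limma with an intensity trend over all chicken probe sets, 0 of the 9 probe sets passed an adjusted p of 0.05, and 3 had an unadjusted p below 0.05, those of EVX1, SP8 and CDX4. Over all chicken probe sets 1 passed, or 0.00265%, the lower probe set of CYP24A1, and 4.37% had an unadjusted p below 0.05. At this group size the smallest p of an exact two-sided permutation test is 0.333 for any gene. With the replicate number added to the fit as a block, 2 of the 9 probe sets passed as higher, those of EVX1 and SP8, against 0.271% of all chicken probe sets, or 0.335% with an offset of 16 and a filter on background. The labels do not say that a shared number marks a batch, so this fit is given as an alternative. With 4 arrays it leaves little spread of a gene's own to estimate. Its p-values rest mostly on the spread of other probe sets. Of the 7 probe sets above background on all 4 arrays, 4 were higher in both HoxA13 arrays than in both control arrays, 1 was lower and 2 overlapped. Among all chicken probe sets above background on all 4 arrays, 18.8% were higher without overlap and 13.8% lower. Over the 6 genes above background, each by its brightest probe set, the median log2 difference was 0.43, against 0.04 over the 11957 chicken probe sets above background on all arrays. The median of the 6 genes lay between the values of the brightest CDX2 probe set (0.41) and CDX4 (0.46). Another CDX2 probe set above background was at -0.09, so this median depends on the choice of probe set.

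**Figure D1:**
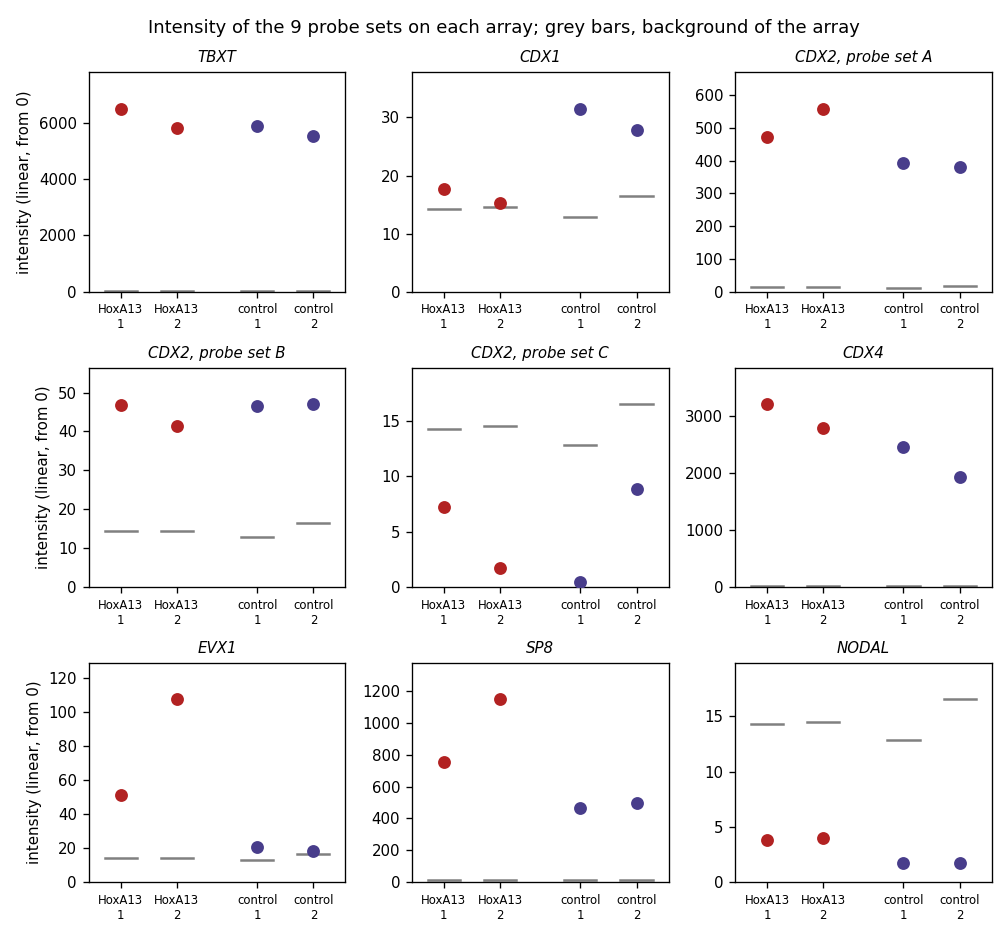
Intensity (linear axis from 0) of each of the 9 probe sets on the 2 HoxA13 arrays (red) and the 2 control arrays (dark blue), with the background of each array as a grey bar. CDX2 probe sets are ordered A to C by mean log2 intensity. The red points of EVX1, SP8, CDX4 and CDX2 probe set A lie above the blue ones, those of CDX1 lie below, and NODAL and CDX2 probe set C stay under the grey bars.

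EVX1 had an intensity of 51.3 and 107 in HoxA13 arrays, against 20.8 and 18.5 in control arrays. All 4 values were above the background of their array, the control values only by a small margin, and the groups did not overlap. The lower HoxA13 value was still 2.47 times the higher control value. The mean was 79.4 ± 39.7 in HoxA13 arrays and 19.6 ± 1.65 in control arrays (SD, n = 2 each). The log2 difference was 1.92 ± 0.47 (SE), and the lower end of its 95% interval, which is not adjusted for the number of probe sets, was at 0.84 (limma unadjusted p = 0.00315, adjusted p = 0.986). HoxA13 replicate 2 was 2.09 times as bright as HoxA13 replicate 1, so the size of the difference depended on the array. With an offset of 16 or 32 added before the log, which shrinks differences of dim probe sets, EVX1 was 2.56-fold or 2.09-fold higher. It was 2.47-fold between the arrays numbered 1 and 5.82-fold between those numbered 2. As a description of its size, 19 of 2692 other chicken probe sets within 0.5 log2 units of the same mean intensity differed by as much or more in either direction, and 2 of these were higher in HoxA13.

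SP8 had 752 and 1147 in HoxA13 arrays, against 469 and 499 in control arrays. Both HoxA13 values exceeded both control values, and again HoxA13 replicate 2 was the brighter one. The mean was 950 ± 279 in HoxA13 arrays and 484 ± 21.4 in control arrays (SD, n = 2 each). The log2 difference was 0.94 ± 0.26 (SE), with an unadjusted 95% interval of 0.35 to 1.53 (limma unadjusted p = 0.00589, adjusted p = 0.986). SP8 was 1.61-fold higher between the arrays numbered 1 and 2.30-fold between those numbered 2. Of 1103 other probe sets of similar mean intensity, 16 differed by as much or more.

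TBXT had 6483 and 5820 in HoxA13 arrays, against 5873 and 5508 in control arrays. The lower HoxA13 value lay just under the higher control value, so the groups overlapped. The log2 difference was 0.11 ± 0.13 (SE, limma adjusted p = 0.986). Its 95% interval allows a level in HoxA13 arrays between 0.876 and 1.33 times that in control arrays. The miss of the threshold does not show that TBXT was the same in both groups.

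CDX4 had 3200 and 2783 in HoxA13 arrays, against 2458 and 1928 in control arrays. The groups did not overlap, though the lower HoxA13 value was only 1.13 times the higher control value. The mean was 2992 ± 295 in HoxA13 arrays and 2193 ± 375 in control arrays (SD, n = 2 each). CDX4 was 1.37-fold higher, a log2 difference of 0.46 ± 0.18 (SE, unadjusted 95% interval 0.04 to 0.87, limma unadjusted p = 0.0351, adjusted p = 0.986). The difference was 1.30-fold between the arrays numbered 1 and 1.44-fold between those numbered 2, closer together than for EVX1, SP8 or the brightest CDX2 probe set. Within each group the array numbered 2 was the dimmer one for CDX4, as it was for TBXT. Among 316 other probe sets of mean intensity similar to CDX4, 6 differed by as much or more.

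CDX2 was represented by 3 probe sets, which did not give the same picture. The brightest had 473 and 557 in HoxA13 arrays, against 392 and 381 in control arrays. These values did not overlap, and the log2 difference was 0.41 ± 0.24 (SE, limma adjusted p = 0.986). Among 1402 other probe sets of similar mean intensity, 205 differed by as much or more. A second probe set, also above background on every array, had 46.7 and 41.3 in HoxA13 arrays, against 46.6 and 47.0 in control arrays. It gave a log2 difference of -0.09 ± 0.38 (SE, limma adjusted p = 0.996), with overlapping groups. The third was below background on all arrays, at 7.23 and 1.67 in HoxA13 arrays and 0.446 and 8.83 in control arrays, and carries no level of CDX2. The 1.33-fold difference of the brightest probe set therefore may not stand for the gene.

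Taking each gene by its brightest probe set, CDX1 was the only one of the 6 genes above background whose mean was lower in HoxA13 arrays. Its intensity was 17.7 and 15.3 in HoxA13 arrays, against 31.4 and 27.8 in control arrays. The groups did not overlap, and the HoxA13 values stood just above the backgrounds of 14.3 and 14.5 of their arrays. CDX1 was 1.80-fold lower, a log2 difference of -0.85 ± 0.46 (SE, unadjusted 95% interval -1.89 to 0.20, limma unadjusted p = 0.0998, adjusted p = 0.986). With an offset of 16 or 32 it was 1.40-fold or 1.27-fold lower. The log2 difference was -0.83 between the arrays numbered 1 and -0.87 between those numbered 2. Among 3412 other probe sets of mean intensity similar to CDX1, 496 differed by as much or more. The 3 caudal genes thus did not share a direction, with CDX4 and the brightest CDX2 probe set higher and CDX1 lower, and none of the differences passed the test.

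NODAL had 3.77 and 4.01 in HoxA13 arrays, against 1.78 and 1.73 in control arrays. The HoxA13 values were the higher ones, but all 4 lay far below the background of their array. No fold is given for it, and NODAL was not detectable at this brightness. In the fit its 95% interval on the log2 scale ran from -1.56 to 3.86.

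**Figure D2:**
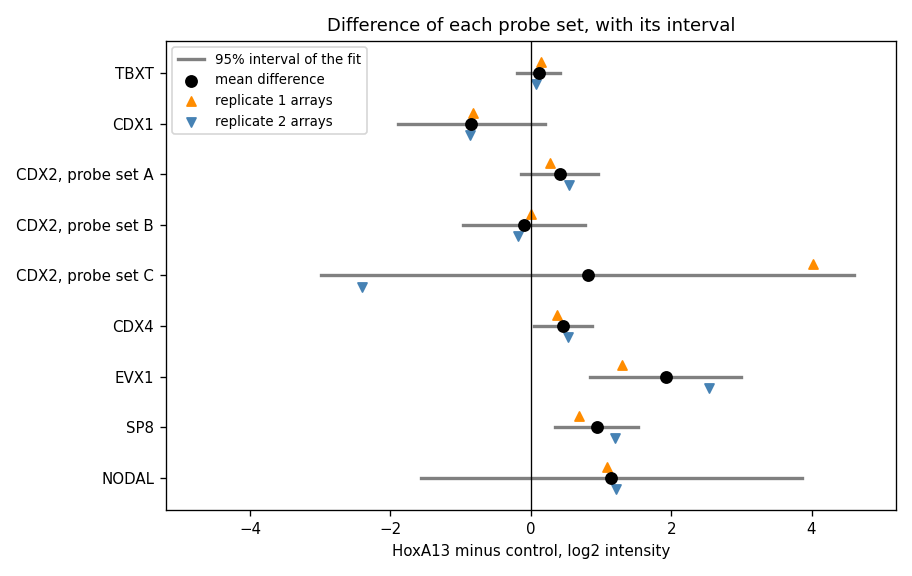
Log2 intensity difference, HoxA13 minus control, for each probe set (black point) with the unadjusted 95% interval of the limma fit (grey line) and the differences between the arrays numbered 1 (orange) and numbered 2 (blue). The intervals of EVX1, SP8 and CDX4 lie above 0, and for each probe set above background other than CDX2 probe set B both coloured points fall on the same side of 0.

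The genes also differed in how the pair of HoxA13 arrays compared with each other. EVX1, SP8 and the brightest CDX2 probe set were brighter on HoxA13 replicate 2 than on replicate 1, by 2.09, 1.52 and 1.18 times. TBXT, CDX4, CDX1 and the second CDX2 probe set were brighter on HoxA13 replicate 1, by 1.11, 1.15, 1.16 and 1.13 times. The control arrays were within 1.27 times of each other for each probe set above background. EVX1 and SP8 thus had both the larger group differences and the larger spread within the HoxA13 group.

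**Figure D3:**
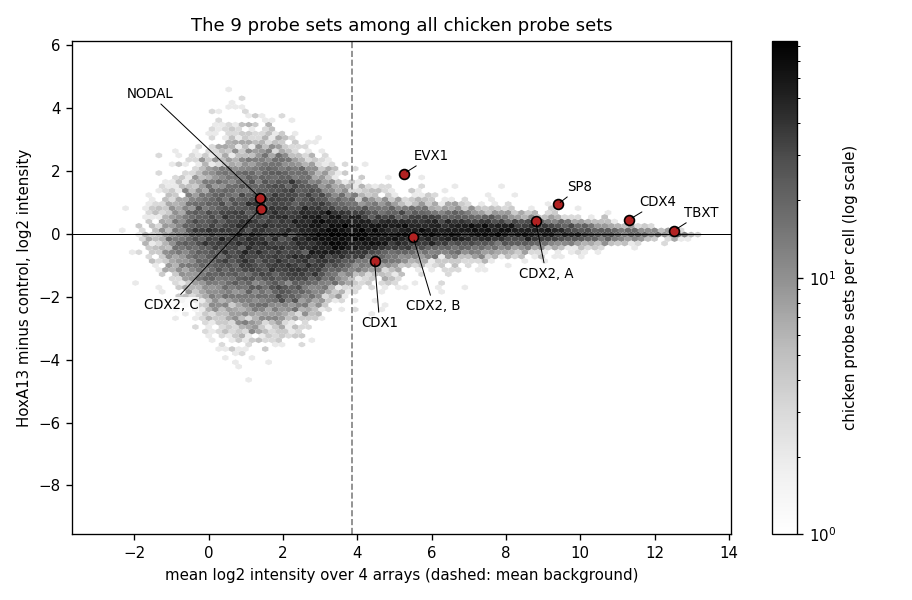
Log2 intensity difference, HoxA13 minus control, against mean log2 intensity over the 4 arrays for all 37695 chicken probe sets (grey, darker where more of them lie) and the 9 probe sets described (red). EVX1 and SP8 lie at the upper edge of the cloud at their brightness, TBXT and CDX2 probe set B lie within it near 0, and NODAL and CDX2 probe set C lie left of the dashed background line, where the spread is wide.

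Relatives of these genes were examined from fixed lists, written with earlier results of these data known, each gene by its brightest probe set. Of 15 measured T-box genes, 5 were above background on at least 2 arrays and 0 passed in limma, with 1 higher and 1 lower at an unadjusted p below 0.05. TBX1, a gene of the pharyngeal region, had 14.5 and 26.8 in HoxA13 arrays and values below background, 2.36 and 7.92, in control arrays, at least 1.35-fold higher. TBX15 was below background in HoxA13 arrays, at 2.09 and 13.6, against 18.3 and 43.8 in control arrays, at least 1.97-fold lower. Neither passed (limma adjusted p = 0.986 for each). TBX6, a T-box gene of the presomitic mesoderm, was below background on all arrays. The median log2 difference of the T-box list was 0.11, against 0.02 over all chicken probe sets. This is the value of TBXT itself, and 9 of the 15 genes were below background on all arrays. Over the 2 genes above background on all arrays the median was -0.014. The list median has no settled sign, at -0.13 without HoxA13 replicate 1 and 0.49 without HoxA13 replicate 2.

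Of 5 measured Sp genes, SP8 and SP3 were above background on at least 2 arrays. SP3, a widely expressed transcription factor, had 506 and 508 in HoxA13 arrays, against 556 and 249 in control arrays, and its groups overlapped. In the list of the caudal, Evx and related homeobox genes 6 were measured, and besides the members it held EVX2, which was below background on all arrays, and GBX2. GBX2, a homeobox gene of the posterior neural plate, had 165 and 443 in HoxA13 arrays, against 181 and 285 in control arrays, with overlap. The median log2 difference was 0.39 for the caudal and Evx list, between 0.31 and 0.45 under the alternatives run. For the Sp list it was 0.45, which is the value of SP3 itself. The Sp median was 0.69 over the genes above background on at least 2 arrays and 0.61 without control replicate 1. It was 0.17 without HoxA13 replicate 2, 0.059 without control replicate 2 and 0.10 with an offset of 32. With the mean over the probe sets of a gene it was -0.024. Of these lists 0 genes passed in limma, and SP8, EVX1 and CDX4 were those with an unadjusted p below 0.05.

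The Nodal pathway list had 16 measured genes, of which 9 were above background on at least 2 arrays. None passed in limma (0 of 16, with 1 higher and 1 lower at an unadjusted p below 0.05). CFC1, which codes for a co-receptor of Nodal, had 18.9 and 0.337 in HoxA13 arrays, against 67.5 and 46.0 in control arrays. It was above background in 1 of the 2 HoxA13 arrays, and its values were lower there in both (limma unadjusted p = 0.0179, adjusted p = 0.986). SMAD2, an intracellular mediator of the pathway, had 388 and 359 in HoxA13 arrays, against 262 and 207 in control arrays, 1.60-fold higher (limma adjusted p = 0.986). The receptor gene ACVR2A had 750 and 1023 in HoxA13 arrays, against 551 and 768 in control arrays, with overlap. The antagonist genes LEFTY1 and CER1 and the target genes GSC and MIXL1 were below background on all arrays. The median log2 difference of the list was 0.25, and 0.07 over its 5 genes above background on all arrays. With 1 array left out it lay between 0.0065 and 0.22, and it was -0.055 over the genes above background on at least 2 arrays.

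Of the other streak and tail bud genes 23 were measured and 20 were above background on at least 2 arrays. Here 0 passed in limma, and 3 were higher and 0 lower at an unadjusted p below 0.05. Without regard to the test, 7 were higher without overlap and 3 lower among those 20. The list was written with earlier results of these data known, so these counts are a description only. The shares over all chicken probe sets that met the same brightness rule were 18.3% and 14.7%. The 3 lower were MSGN1, SALL4 and WNT11. The median log2 difference over the 23 genes was 0.19, but 0.0072 without HoxA13 replicate 1 and 0.00034 with an offset of 32. CYP26A1, which degrades retinoic acid, had 808 and 443 in HoxA13 arrays, against 112 and 93.7 in control arrays (limma adjusted p = 0.233). FGF8, a growth factor of the streak, had 1411 and 1637 in HoxA13 arrays, against 637 and 545 in control arrays (limma adjusted p = 0.356). FGF3 had 824 and 742 in HoxA13 arrays, against 459 and 266 in control arrays (limma adjusted p = 0.986). EVX1 and SP8 were highest on HoxA13 replicate 2, as FGF8 was, whereas CYP26A1 and FGF3 were highest on HoxA13 replicate 1.

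**Figure D4:**
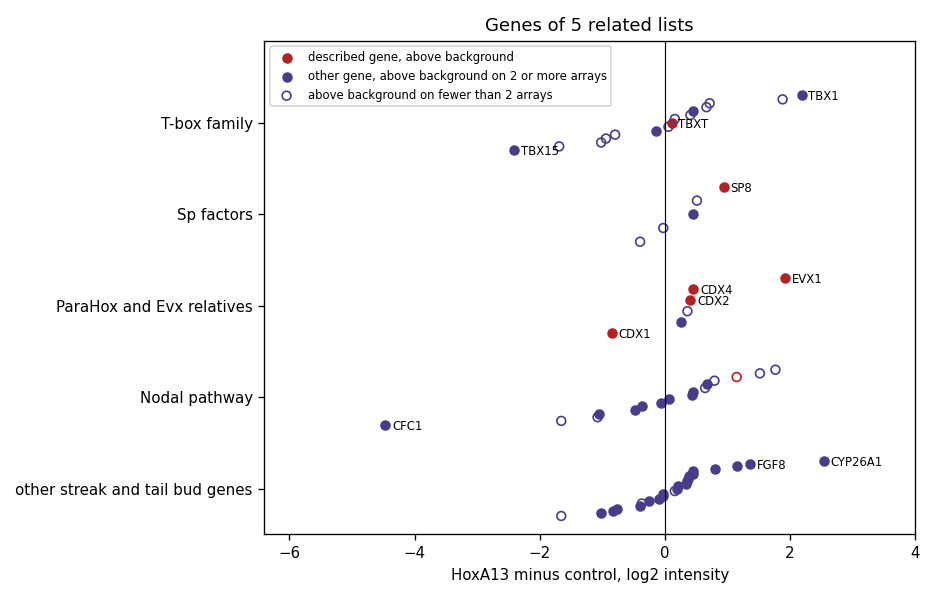
Log2 intensity difference, HoxA13 minus control, of each measured gene in 5 lists of relatives, by its brightest probe set. The described genes are red, and open circles mark genes above background on fewer than 2 arrays. CYP26A1, TBX1 and EVX1 lie farthest to the right and CFC1 farthest to the left among the filled points, and the T-box list spreads to both sides of TBXT near 0.

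Markers of other cell types, from a list fixed for each type, are given as summed intensity, with and without the brightest gene of the list. For 8 markers of lateral and intermediate mesoderm the sums were 58.0 and 67.8 in HoxA13 arrays, against 157 and 201 in control arrays, and 5 of the 8 were below background on every array. Without PRRX1 they were 41.4 and 37.9 in HoxA13 arrays, against 48.1 and 87.9 in control arrays. For 8 blood and endothelial markers they were 79.7 and 39.1 in HoxA13 arrays, against 278 and 224 in control arrays, and without FLT1 46.1 and 38.1 in HoxA13 arrays, against 65.8 and 70.4 in control arrays, with 4 of the 8 below background throughout. In both lists 1 gene carried most of the difference. PRRX1 was the only one of the mesoderm markers above background on at least 2 arrays. Of the blood and endothelial markers, 0 were above background on all 4 arrays. The sums without the brightest gene thus rest on values near or below background. For 4 endoderm markers they were 69.9 and 21.7 in HoxA13 arrays, against 358 and 444 in control arrays, with 2 of the 4 below background throughout. For 6 surface ectoderm markers they were 2127 and 1223 in HoxA13 arrays, against 2999 and 2258 in control arrays. Without HHEX the endoderm sums overlapped, at 25.7 and 12.3 in HoxA13 arrays and 21.9 and 25.0 in control arrays, and without EPCAM so did the surface ectoderm sums, at 552 and 194 in HoxA13 arrays and 396 and 571 in control arrays. HHEX and EPCAM thus set the order of the groups in these lists. The 9 neural plate markers summed to 2664 and 2293 in HoxA13 arrays, against 1669 and 1267 in control arrays, and 4 of the 9 were below background throughout. Without CDH2 they overlapped, at 291 and 178 in HoxA13 arrays and 230 and 214 in control arrays. The 8 streak and presomitic precursor markers summed to 15448 and 14837 in HoxA13 arrays, against 13195 and 11464 in control arrays. Without TBXT they still did not overlap, at 8966 and 9017 in HoxA13 arrays, against 7322 and 5956 in control arrays. CDX2 and CDX4 remain in that sum, so it is not separate from their values. Within the list MSGN1 was lower without overlap, at 1399 and 1244 in HoxA13 arrays, against 2040 and 1480 in control arrays. TBXT and WNT8A overlapped, and the rest were higher without overlap. The 7 somite markers overlapped, at 82.4 and 125 in HoxA13 arrays and 96.4 and 117 in control arrays, and 3 were below background throughout. Without PAX9, the brightest of them, they did not overlap, at 33.7 and 57.8 in HoxA13 arrays, against 72.5 and 102 in control arrays. Most of that gap lay in MEOX1, the only one of the 7 lower without overlap. It had 13.6 and 23.1 in HoxA13 arrays, against 45.5 and 67.3 in control arrays. Of the 7, 0 were above background on all 4 arrays. PAX9 went the other way, at 48.7 and 67.3 in HoxA13 arrays, against 23.9 and 14.7 in control arrays. The 5 node and notochord markers summed to 211 and 237 in HoxA13 arrays, against 112 and 174 in control arrays, with 1 below background throughout. Without NOTO they were 92.1 and 106 in HoxA13 arrays, against 80.8 and 80.2 in control arrays. The part of the differences in marker level in the values of EVX1, SP8, CDX4 and CDX1 was not tested. In pooled tissue, fewer cells of a type and less RNA per cell cannot be told apart.

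The genes with the most similar pattern over the 4 arrays were found by the root mean square difference between log2 intensities centred on each probe set's own mean. These distances rest on 4 arrays and are a description. EVX1 had no probe set within 0.1 among the 9606 compared, and its nearest were PCYT2, an enzyme gene of phospholipid synthesis, at 0.22 and the growth factor gene PTN at 0.34. SP8 had 5 within 0.1, the nearest being LOC101748312 at 0.052 and STX10 at 0.072. CDX1 had 20, with C11orf96 and TRAF5 both at 0.044. CDX4 had 158, with HIF1A, the hypoxia factor gene, at 0.025 and EARS2 at 0.028. Each caudal gene thus had more close counterparts than EVX1 or SP8. The brightest CDX2 probe set had 236, with WDR82 at 0.021 and ING5 at 0.022. The second CDX2 probe set had 569, with HSD17B7 at 0.011 and PGP at 0.013. TBXT, whose values were nearly level, had 664, with DENND5A at 0.010 and AKR1A1 at 0.012. A small difference between the groups is shared by many probe sets, and the pattern of EVX1 had the fewest close counterparts of the 7 probe sets. The limit of 0.1 was not scaled to the size of a difference, so a large difference tends to leave few counterparts.

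The genes beside the members in the RefSeq order of the GRCg7b assembly were looked up after the values had been seen. Only neighbours of EVX1 and SP8 are named here, so the other members' neighbours are not described. Among protein-coding genes, EVX1 has HOXA13 2 places away on one side and HIBADH and TAX1BP1 on the other. HIBADH, an enzyme gene of valine breakdown, had 549 and 745 in HoxA13 arrays, against 702 and 958 in control arrays. TAX1BP1 had 818 and 679 in HoxA13 arrays, against 1151 and 735 in control arrays. For both the groups overlapped and the mean log2 intensity was the lower one in HoxA13 arrays. The higher values of EVX1 were thus not seen in HIBADH or TAX1BP1. The HOXA13 probe set was above background on only 1 HoxA13 array and 1 control array, so it cannot show whether HOXA13 differed. Whether the region around EVX1 differed as a whole was not tested. SP4, a neighbour of SP8 and a member of its family, had 10.9 and 10.6 in HoxA13 arrays, against 13.1 and 15.2 in control arrays. It was above background on 1 array. ABCB5, the neighbour of SP8 on the other side, was below background on all arrays.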

How the data were processed

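Total RNA of 4 embryo pools was amplified by a double amplification protocol, labelled with biotin and hybridised, per the labels' protocols. The deposited table gives each probe set of the chicken Affymetrix array 1 linear intensity per sample. R 2.12.1 is the tool that the submitters' processing notes name. How the authors summarised, background-corrected and scaled the intensities is not given in the sources used here. No further scaling was applied before taking log2.

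Of 38535 probe sets, the 37695 chicken ones were tested together with limma 3.58.1 in R 4.3.3 (lmFit, then eBayes with an intensity trend and robust estimation), HoxA13 minus control, two-sided, with Benjamini-Hochberg adjustment at 0.05. Gene symbols are those of the platform annotation, where 27168 chicken probe sets have 1 symbol, 177 several and 10350 none. A gene in a list is given by its probe set with the highest mean log2 intensity. For an "at least" fold, values of the dim group under background were replaced by the background of their array before log2 means were compared. The number of arrays limits the precision.

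Named genes were the members, the 3 genes of smallest unadjusted p above background in each of 5 lists, and the 2 genes of most similar pattern for each member probe set. EVX2, GBX2, TBX6, LEFTY1, CER1, GSC, MIXL1, MSGN1, SALL4, WNT11, WNT8A and MEOX1 were added after their values were seen. So were the brightest gene of each marker list, the marker sums without it and the neighbouring genes. The members and lists were chosen with earlier results of these data known. Alternatives covered the prior, filters, offsets, scaling, the replicate number as a block and leaving out each array.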

Additional observations from a re-analysis of the deposited data

How the results depend on the processing

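In limma no member probe set passed in the 8 other settings without the replicate block (0 higher and 0 lower), nor with each array left out in turn. Of 118 refits of single member probe sets, 111 kept their direction and side of the threshold. The prior, the filters and the block leave a log2 difference unchanged, so those refits could move only the p-value. The 3 that reversed were all of the third CDX2 probe set, below background, at -0.0020 with an offset of 32, -0.25 without HoxA13 replicate 1 and -1.34 without control replicate 1, against 2.96 without control replicate 2. The other 4 passed with the replicate number as a block, which made 2 member probe sets higher. SP8 had an adjusted p of 0.00109 and EVX1 of 0.00542 in that fit, and 0.0190 and 0.0364 with the block, an offset of 16 and a filter on 2 arrays above background (2 members higher again). CDX4 had 0.0702 and 0.0832 there. Without a block the adjusted p of EVX1 ran between 0.432 and 1.0, and that of SP8 between 0.523 and 1.0. The block moved the calls over all chicken probe sets to 102 higher and 162 lower, or 0.271% and 0.43%, and with offset and filter to 53 and 107. The lists then held 5 genes higher, EVX1, SP8, FGF8, FGF3 and CYP26A1, and 1 lower, CFC1, in both blocked fits. The labels do not say that a number marks a shared batch. P-values of the blocked fits also rest mostly on the spread of other probe sets. Arrays of equal number deviated together from their group means (correlation 0.33 across 11957 probe sets). With 2 arrays per group the 2 pairs mirror each other and are not independent, which is too little to establish a pairing. Other settings moved the single lower call over all probe sets to 0 with the ordinary prior, 2 with either filter, 15 with spike-in scaling, which was chosen after seeing the data, and 10 with the offset of 16 and filter, which also gave 3 higher. Of the list genes CYP26A1 passed there (1 higher), and CFC1 with spike-in scaling (1 lower). With 1 array left out, the lone array being assumed to vary like the other group, the lower calls ran between 0 and 5 and the higher calls stayed at 0, as did those of the lists. The log2 difference of EVX1 then lay between 1.39 without HoxA13 replicate 2 and 2.46 without HoxA13 replicate 1, that of SP8 between 0.64 and 1.25, that of CDX4 between 0.28 and 0.63 and that of CDX1 between -0.95 and -0.74. Values near background, those of CDX1 and of EVX1 in control arrays among them, are the least precise.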
